A study of Mus musculus with 15 samples.

Results

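H3K4me3 at transcription start sites was compared between 3 native ChIP-seq libraries made from 5000, 10000 and 100000 TT2 cells. TT2 is a mouse embryonic stem cell line. Per the labels the cells are wild type and male, derived from the inner cell mass of blastocysts of a C57BL/6 x CBA cross, and all 3 libraries used the same antibody. In native ChIP chromatin is precipitated without crosslinking, which suits histone marks that stay on their nucleosomes. The regions described are 1 kb windows around start sites with a value above 0 in at least 1 of the 3 libraries, which held for 73704 of 74866 windows; the series has 15 libraries in all, of which these are 3. The question was whether fewer cells rank start sites and genes as 100000 cells do. Each cell number has 1 library, so no difference given here has a replicate check, and no p-value is given.

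H3K4me3 is trimethylation of lysine 4 of histone H3. It is placed by the SET1 and MLL (KMT2) enzyme complexes, removed by KDM5 demethylases, and marks the nucleosomes around active start sites. CpG-rich promoters are bound by CXXC-domain proteins of these complexes, and in embryonic stem cells many such promoters of silent developmental genes carry H3K4me3 together with H3K27me3, the mark of the Polycomb repressive complexes.

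To show what kinds of promoter stand behind the values, the 250 bases upstream of the start of 6 genes are printed (RefSeq, GRCm38.p6, 5′ to 3′ on the gene's strand, with CG in capitals). They were chosen after the values were seen: Atg4b and Cdk12 were among the highest genes in every library, Nr1h2 and Wnt4 were far higher and far lower at 5000 than at 100000 cells relative to other genes, and Hoxd10 and Csn2 were the lowest of their lists. Positions are chr1:93754655-93754904 on the plus strand for Atg4b, chr11:98203055-98203304 on the plus strand for Cdk12, chr7:44553966-44554215 on the minus strand for Nr1h2, chr4:137277385-137277634 on the plus strand for Wnt4, chr2:74691641-74691890 on the plus strand for Hoxd10 and chr5:87699426-87699675 on the minus strand for Csn2.
Atg4b: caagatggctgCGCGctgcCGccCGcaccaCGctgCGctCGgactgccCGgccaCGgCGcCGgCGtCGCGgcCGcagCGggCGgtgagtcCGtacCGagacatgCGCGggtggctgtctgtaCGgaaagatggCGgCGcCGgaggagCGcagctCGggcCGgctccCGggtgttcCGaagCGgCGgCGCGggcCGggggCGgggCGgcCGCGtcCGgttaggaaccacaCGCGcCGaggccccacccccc
Cdk12: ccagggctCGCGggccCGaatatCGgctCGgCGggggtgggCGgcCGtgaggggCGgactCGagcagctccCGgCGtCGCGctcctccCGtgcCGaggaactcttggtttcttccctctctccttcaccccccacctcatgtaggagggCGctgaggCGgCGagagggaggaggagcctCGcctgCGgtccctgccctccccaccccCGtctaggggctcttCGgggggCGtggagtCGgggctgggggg
Nr1h2: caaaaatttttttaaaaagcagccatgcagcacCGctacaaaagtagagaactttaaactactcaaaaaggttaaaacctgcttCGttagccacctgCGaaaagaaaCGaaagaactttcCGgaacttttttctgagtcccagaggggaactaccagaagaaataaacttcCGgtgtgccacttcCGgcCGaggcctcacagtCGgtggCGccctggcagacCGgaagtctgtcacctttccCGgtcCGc
Wnt4: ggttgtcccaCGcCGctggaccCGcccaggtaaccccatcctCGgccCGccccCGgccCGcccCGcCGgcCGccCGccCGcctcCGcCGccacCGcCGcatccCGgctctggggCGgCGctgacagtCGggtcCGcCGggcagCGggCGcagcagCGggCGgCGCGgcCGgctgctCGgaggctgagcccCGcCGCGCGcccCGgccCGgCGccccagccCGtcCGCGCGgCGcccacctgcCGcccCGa
Hoxd10: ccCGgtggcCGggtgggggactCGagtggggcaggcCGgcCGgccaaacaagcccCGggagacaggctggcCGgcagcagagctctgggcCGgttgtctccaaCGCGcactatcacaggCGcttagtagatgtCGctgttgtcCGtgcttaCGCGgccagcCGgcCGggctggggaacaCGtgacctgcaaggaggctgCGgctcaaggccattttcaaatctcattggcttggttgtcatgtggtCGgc
Csn2: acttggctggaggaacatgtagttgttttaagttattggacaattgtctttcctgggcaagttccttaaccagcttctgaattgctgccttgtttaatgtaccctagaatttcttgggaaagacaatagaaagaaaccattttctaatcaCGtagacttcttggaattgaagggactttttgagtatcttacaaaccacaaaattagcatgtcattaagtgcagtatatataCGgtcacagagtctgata
These stretches hold 43 CG in Atg4b, 25 in Cdk12, 13 in Nr1h2, 44 in Wnt4, 20 in Hoxd10 and 2 in Csn2. CG reads the same on both strands. It occurs at least once in 92.1% of 32851 RefSeq promoters over the same 250 bases, with a median of 6.

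Values are RPKM, reads per kilobase scaled to library depth. Since the windows have 1 length, the smallest step between values is the worth of a single read, 0.539, 0.938 and 0.0602 RPKM at 5000, 10000 and 100000 cells, from which depths of 1.86, 1.07 and 16.6 M reads follow. The libraries also differed in how much of their reads fell at start sites. Among 42260 windows that do not overlap, the windows held 15.5% of reads at 5000 cells, 31.4% at 10000 cells and 7.24% at 100000 cells, and ranks were compared in place of levels. The deposited table stops at 49.55, 99.38 and 49.21 RPKM. At 5000 and 10000 cells it ends abruptly, with 7 and 13 windows at the highest value itself and 138 and 262 within 10% of it, against 1 window in both counts at 100000 cells. Stronger windows may therefore be missing from it, for a reason not given in the sources used here, and some listed genes have no row. Highest and lowest genes, top lists and their recovery refer to the windows in the table. A gene that is low here may lack its marked start site among these windows, which was not tested. In bulk chromatin, fewer cells with the mark and less mark per cell cannot be told apart. As a check of the cell type, 8 of 8 stem cell markers (Pou5f1, Sox2, Nanog, Esrrb, Zfp42, Tdgf1, Dppa4 and Dppa5a) held reads in every library, with summed levels of 124, 276 and 39.2 RPKM at 5000, 10000 and 100000 cells. The 10 fibroblast markers (Col1a1, Col1a2, Col3a1, Thy1, Pdgfrb, Dcn, Lum, Postn, Prrx1 and Twist2) summed to 17.8, 18.8 and 10.3 RPKM, and 1, 2 and 0 of them were at 0. Reads were held by 20206, 17787 and 24722 of all 24906 ranked genes, so holding a read says little about cell type. The top 25% of genes held 5, 5 and 4 of the 8 stem cell markers and 0 of the fibroblast markers in each library. A wider fibroblast list of 25 genes summed to 72.2, 118 and 35.6 RPKM, led by Fn1, the fibronectin gene, with 23.70, 36.56 and 6.5 RPKM, against 423, 907 and 151 RPKM over 30 pluripotency genes. What other cells contributed was not tested. Of 4 Y-linked genes used as a check of the male line, 3 were ranked and summed to 3.77, 2.81 and 1.02 RPKM, and Kdm5d was listed at 0 in all 3 libraries. Uty gave most of this, with 3.23, 2.81 and 0.54 RPKM (6, 3 and 9 reads), and Ddx3y had 0, 0 and 0.18 RPKM. With so few reads, most of them at 1 gene, this check does not settle the sex of the line.

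The 3 libraries ordered start sites alike. Over 73704 windows the Spearman correlation was 0.860 between 5000 and 100000 cells, 0.878 between 10000 and 100000 cells and 0.877 between 5000 and 10000 cells. Over 24906 genes, each represented by its window with the highest mean, it was 0.894, 0.909 and 0.907. The choice of window leans on 10000 cells, because mean window levels were 6.05, 12.7 and 2.55 RPKM at 5000, 10000 and 100000 cells. All these correlations are descriptions, because neighbouring windows overlap, windows share their library, and ties at low read numbers lower the value. Within the strongest genes the pairs differed more. Among genes in the top 25% of the third library, the correlation was 0.630 between 5000 and 100000 cells (6236 genes), 0.640 between 10000 and 100000 cells (6287 genes) and 0.875 between 5000 and 10000 cells (6258 genes). Among genes at or below the 50th percentile of the third library it was 0.389, 0.495 and 0.367. Each pair was taken over a different set of genes, chosen by the third library. What part of the differences between pairs comes from that choice was not tested. When reads of all libraries were thinned to the depth of the shallowest, the window correlations with 100000 cells were 0.726 for 5000 and 0.757 for 10000 cells, while 5000 and 10000 cells correlated at 0.869. The share of reads at start sites differs between the libraries as given above, and its part in these values was not tested.

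Of 1294, 1276 and 1262 genes in the top 5% at 5000, 10000 and 100000 cells, 618 were in all 3 lists. The 8 genes with the highest mean rank over the libraries were Thap4, Atg4b, Mkrn1, Cdk12, 1110008F13Rik, Hdgf, Vps35 and Eif5a. Thap4, a THAP-domain protein gene, had 46.86, 99.38 and 19.21 RPKM at 5000, 10000 and 100000 cells (87, 106 and 319 reads). Atg4b, an autophagy protease gene on the other strand, shares almost the same window and had 46.86, 99.38 and 18.91 RPKM, so these 2 genes are 1 measurement (mm9, chromosome 1, 95650915 to 95651915 for Thap4 and 95650982 to 95651982 for Atg4b). Cdk12, a kinase of elongating RNA polymerase II, had 45.24, 99.38 and 15.24 RPKM. Eif5a, a translation factor gene, had 45.78, 98.44 and 14.33 RPKM. All 8 stood above the 99th percentile in each library, which the ranking by mean fixes.

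Recovery of the strongest windows was lower against 100000 cells than between the smaller libraries. The top 5% at 100000 cells comprised 3709 windows at or above 8.67 RPKM. At 5000 cells 57.6% of them were also in the top 5% (exact Clopper-Pearson 95% interval 56.0 to 59.2), and at 10000 cells 57.9% (56.3 to 59.5); as shares of the smaller libraries' own lists these were 56.1% and 56.4%. Between 5000 and 10000 cells 77.7% of the 10000-cell list was recovered (76.3 to 79.0), or 77.6% of the 5000-cell list. Windows of the 100000-cell list that were missed were not weak: their median percentile was 90.9 at 5000 cells and 90.8 at 10000 cells, and 98.7% and 98.5% of them stayed in the top 25%. The intervals cover counting error only, and overlapping windows make them too narrow.

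**Figure D1:**
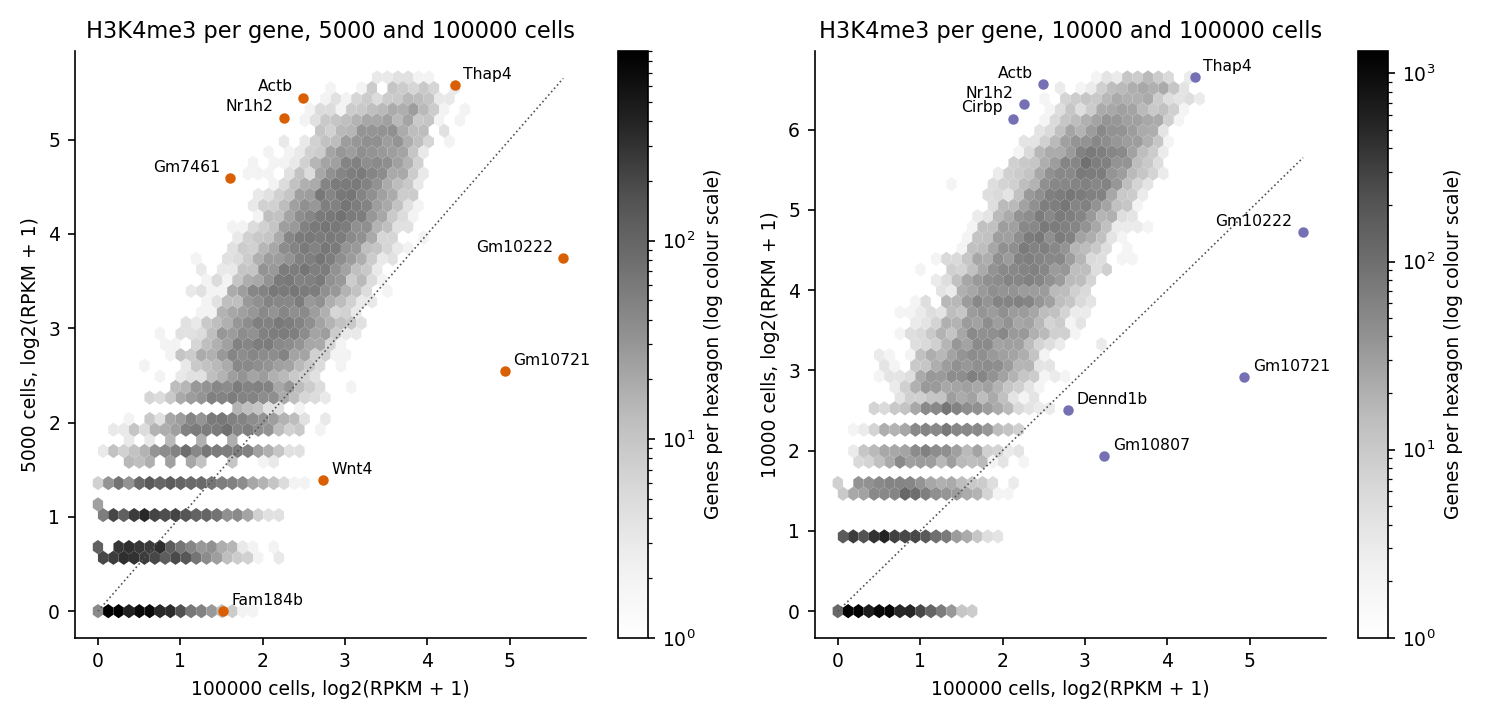
Level of each of 24906 genes at 5000 cells (left) and 10000 cells (right), on the vertical axis, against 100000 cells, on the horizontal axis, as log2(RPKM + 1); hexagon shade gives the number of genes on a log scale and the dotted line marks equal values. Among the 10575 genes that average 5 RPKM or more the median difference from 100000 cells is 1.17 at 5000 cells and 2.22 at 10000 cells, Actb and Nr1h2 lie at the upper edge, and Gm10721 and Gm10222 lie far below it.

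Weak start sites were seen less often than strong ones. Every window of 5 RPKM or more at 100000 cells held a read at 5000 and at 10000 cells. Of 25208 windows above 1 and up to 5 RPKM, 95.2% held a read at 5000 cells and 92.3% at 10000 cells. Of 34636 windows up to 1 RPKM, 56.0% held a read at 5000 cells and 33.8% at 10000 cells, where 1 read is worth more. Of all 1524 windows of the table at 0 at 100000 cells, which include the 1162 at 0 in all 3 libraries, 17.9% held a read at 5000 cells and 9.06% at 10000 cells. Windows of 5 to 10 RPKM at 100000 cells had medians of 17.77 RPKM at 5000 cells and 38.44 RPKM at 10000 cells, that is 33 and 41 reads against 112 at 100000 cells. Of 24906 genes, 3166 had no read in either of the smaller libraries, and 80 of those had 1 RPKM or more at 100000 cells, with 1.93 RPKM the highest. What part depth has in the absence of reads from these genes was not tested.

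**Figure D2:**
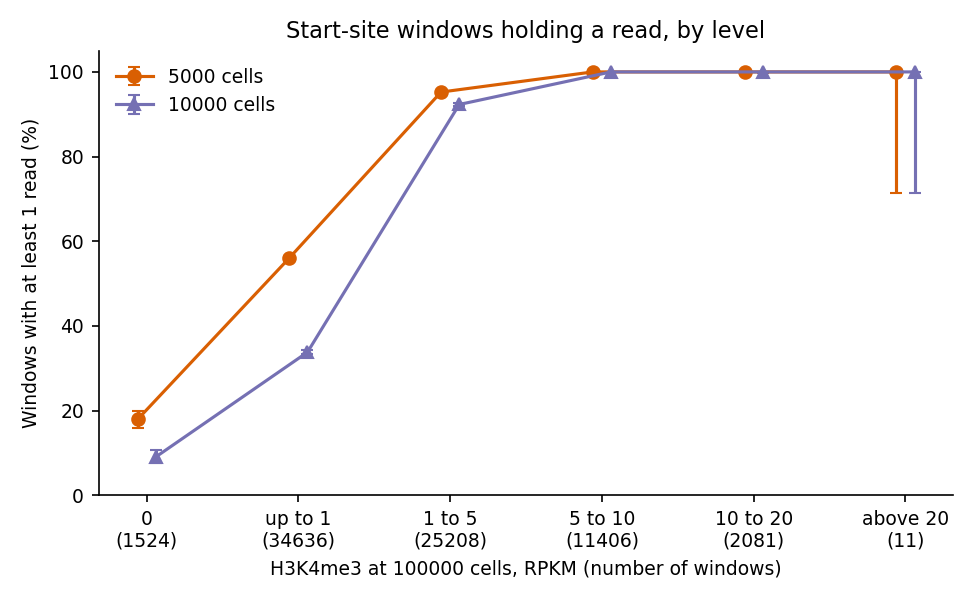
Share of 1 kb windows with at least 1 read at 5000 and 10000 cells (vertical axis, percent, with exact 95% intervals) by level at 100000 cells (horizontal axis, RPKM, with the number of windows). The class at 0 includes the windows at 0 in all 3 libraries. From 5 RPKM upwards both libraries hold a read in 100% of windows, and the interval is wide only for the 11 windows above 20 RPKM.

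The highest window within a gene was also mostly the same. Of 7198 genes with several windows of at least 3 RPKM on average, the highest window was the same in 84.9% between 5000 and 100000 cells (84.1 to 85.7), in 85.2% between 10000 and 100000 cells (84.3 to 86.0) and in 90.1% between 5000 and 10000 cells (89.4 to 90.8), counting tied windows as shared. Where it differed, the median distance was 210, 193 and 256 bp.

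Ribosomal protein genes had the highest median of 15 gene lists in each library as deposited, though with reads thinned to the shallowest library the H3K4 enzyme genes stood above them at 100000 cells (90.9 against 88.1), and HOX, germline and tissue-specific genes were below the median of all genes in each. A group is given by the median percentile of its ranked members among all genes, at 5000, 10000 and 100000 cells. Ribosomal protein genes, whose products build the ribosome together with its RNA, stood at 98.0, 97.8 and 92.5, with 36, 38 and 36 of 39 ranked members in the top 25% (25.2%, 25% and 25.1% of all genes with ties). A further 31 of the 75 listed have a symbol on several chromosomes or cut at a hyphen and were left out, and 5 have no row. Rps10 led them with 45.24, 97.50 and 13.37 RPKM, and Rpl11 had 43.63, 84.38 and 14.03 RPKM. The lowest was Rpl23 at 1.62, 0.94 and 0.78 RPKM. Housekeeping genes stood at 88.3, 90.5 and 83.7 and replication genes at 87.3, 86.4 and 82.9, where Mcm5, a subunit of the replicative helicase, had 38.78, 97.50 and 11.14 RPKM.

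Genes that write, read or erase H3K4 methylation ranked high themselves, at percentiles 92.7, 93.0 and 90.9, with 20, 18 and 19 of 21 ranked members in the top 25%. A further 5 of the 26 listed have no row. The rank depends on the choice of window. With the mean over the windows of a gene these genes stood at 82.3, 82.4 and 84.0, and housekeeping genes at 88.2, 89.7 and 84.7. Kdm5b, an H3K4 demethylase gene, had 39.86, 90.94 and 18.25 RPKM, and Kdm5a, its relative, had 36.62, 90.94 and 15.12 RPKM. Men1, which encodes the MLL-complex subunit menin, was the lowest, with 7.54, 17.81 and 6.02 RPKM. Polycomb genes stood at 83.5, 83.5 and 88.7, with 21, 22 and 21 of 29 in the top 25%. Aebp2, a PRC2 cofactor gene, had 33.39, 86.25 and 19.33 RPKM and Suz12, a core PRC2 subunit gene, 37.70, 60.00 and 14.33 RPKM. Phf1, another PRC2 partner, was the lowest at 2.69, 5.63 and 1.26 RPKM.

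Pluripotency genes stood at percentiles 75.3, 77.4 and 73.5, with 15, 17 and 14 of 30 members in the top 25%. The 4 highest encode transcription factors of the naive state. Klf2 had 47.40, 68.44 and 12.89 RPKM, Klf5 33.39, 78.75 and 14.03 RPKM, Esrrb 35.55, 78.75 and 8.67 RPKM and Klf4 28.55, 76.88 and 8.37 RPKM. Klf2 ranked highest of them at 5000 cells but lowest of them at 10000 cells. Tet1, which encodes an enzyme that oxidises 5-methylcytosine, was the lowest of the list with 0.54, 0 and 0.72 RPKM (1, 0 and 12 reads), although its RNA in 1000 cells was 62.26 RPKM. Whether its windows in the table include the start site in use was not tested.

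The 39 HOX genes, which specify body position, had median percentiles of 39.2, 42.7 and 47.8, and none was in the top 25% of any library. Hoxd8 was highest with 3.77, 14.06 and 3.31 RPKM, and Hoxd10 lowest with 0, 0 and 0.78 RPKM (0, 0 and 13 reads), although its promoter is rich in CG; its H3K27me3 was 2.90 RPKM at 100000 cells. As deposited, both smaller libraries thus ranked HOX genes below 100000 cells. With reads thinned to the shallowest library the HOX medians were 26.5, 35.7 and 44.6. At that depth low medians are tied at few reads, and 26.5 at 5000 cells was also the median of germline and tissue-specific genes. The thinned values therefore cannot check the order of the libraries. Lineage regulators stood at 45.8, 46.3 and 51.2, led by Eomes, a T-box factor of mesendoderm, with 11.31, 21.56 and 4.64 RPKM. Clustered histone genes went the other way, at 58.5, 57.6 and 44.7, and after thinning at 53.9, 52.4 and 28.6. The last is again a tied value, shared by germline and fibroblast genes. Imprinted genes, expressed from 1 parental allele, stood at 60.3, 62.4 and 59.4, and Nespas, an antisense transcript of the Gnas locus, had 32.32, 67.50 and 5.6 RPKM. Strand cannot separate Nespas from overlapping transcripts of that locus in ChIP data.

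Genes of other cells and states also ranked below the median of all genes. Germline genes stood at 39.2, 34.5 and 42.4, fibroblast genes at 39.2, 42.7 and 41.8, and tissue-specific genes at 26.9, 14.3 and 28.5. Of the tissue-specific genes 13, 27 and 0 of 38 were at 0, against 4700, 7119 and 184 of all 24906 genes. Csn2, a milk casein gene, had 0, 0 and 1 read. Y-linked genes, which belong to no other cell or state since the line is male per the labels, stood at 9.44, 14.3 and 8.64. The reason was not tested. A gene with no read takes the tied percentile 9.44 at 5000 cells and 14.3 at 10000 cells, so low percentiles of these libraries cannot be ordered further. Genes of the 2-cell-like state stood at 26.9, 14.3 and 23.5 over 12 ranked of 21 listed, and 9 have no row. Eif1a was the highest of this list, with 47.93, 98.44 and 10.36 RPKM. Dux, the multicopy gene that switches on this state, had 4.31, 2.81 and 7.47 RPKM (8, 3 and 124 reads); its copies share reads, so its value is uncertain.

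**Figure D3:**
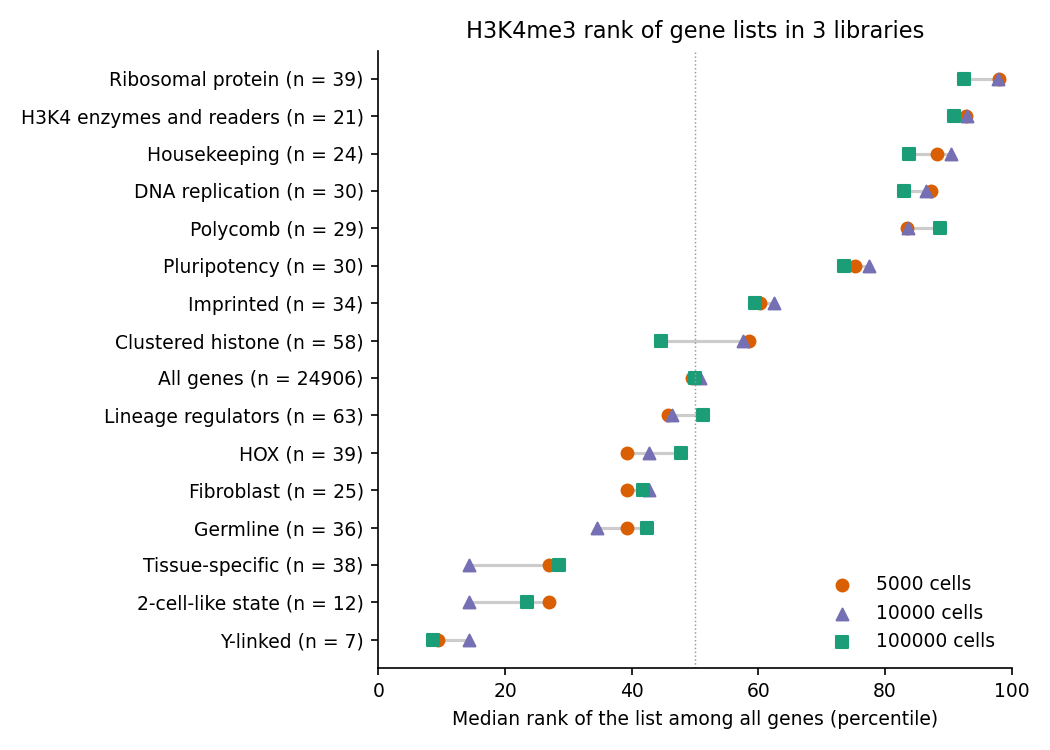
Median rank of 15 gene lists and of all genes (horizontal axis, percentile among 24906 genes; vertical axis, lists with the number of ranked members) at 5000, 10000 and 100000 cells. Ribosomal protein genes are at the top in each library as deposited (after thinning H3K4 enzyme genes are, at 100000 cells), clustered histone genes are farthest right of their 100000-cell value at 5000 cells (58.5 against 44.7), and HOX genes lie left of it (39.2 against 47.8).

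Levels of genes were next set against 100000 cells, in the 10575 genes whose mean over the libraries reached 5 RPKM. As deposited, 6539 genes (61.8%) were higher by at least 1 log2 unit of RPKM + 1 at 5000 cells and 6 (0.0567%) lower, with a median difference of 1.17; at 10000 cells 10332 (97.7%) were higher and 2 (0.0189%) lower, with a median of 2.22. Relative to these medians, 264 (2.5%) were higher and 501 (4.74%) lower at 5000 cells, and 272 (2.57%) higher and 521 (4.93%) lower at 10000 cells. The comparisons share the 100000-cell library, so their values are given side by side and their likeness is not a result. All differences that follow are relative to the median, and adding 1 RPKM understates those of weak genes. The filter leans on the smaller libraries, whose mean window levels were 6.05 and 12.7 RPKM against 2.55 RPKM at 100000 cells. Genes weak at 100000 cells passed it mainly where the smaller libraries were high. This shapes the counts of higher and lower genes and the choice of the largest rises.

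Ribosomal protein genes were higher by at least 1 log2 unit in 9 of 38 at 5000 cells and 8 of 38 at 10000 cells, and lower in 0 of 38 in each, with medians of 0.63 and 0.64. Of 58 ranked clustered histone genes, with a median of 1.11 RPKM at 100000 cells, only 24 passed the filter. Of these, 4 were higher at 5000 cells and 0 at 10000 cells, with medians of 0.51 and 0.27. These values are shaped by the filter and do not describe the whole list. Of 22 housekeeping genes 3 were higher at 5000 cells and 3 at 10000 cells, and 0 and 1 were lower. No pluripotency gene of 27 and no Polycomb gene of 26 passed this size in either direction at 5000 or 10000 cells, with medians between -0.03 and 0.08. Over all 10575 genes 2.5% and 2.57% were higher and 4.74% and 4.93% lower at 5000 and 10000 cells. In lists this small, 0 is near those shares. Of 4 HOX genes with enough signal, 2 were lower at 5000 cells and 0 at 10000 cells, and of 11 lineage regulators 2 and 3 were lower.

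Actb, which encodes cytoplasmic actin, had one of the largest relative differences. It stood at 42.55, 93.75 and 4.64 RPKM at 5000, 10000 and 100000 cells (79, 100 and 77 reads), and the log2 ratio of its RPKM to that at 100000 cells, with nothing added and not relative to the median, was 3.20 at 5000 cells (exact counting interval 2.73 to 3.67) and 4.34 at 10000 cells (3.89 to 4.79). Its window is on the minus strand of chromosome 5, 143667851 to 143668851 (mm9). Nr1h2, the gene of the oxysterol receptor LXR-beta, had 36.62, 78.75 and 3.79 RPKM, with relative differences of 1.80 and 1.83. Cirbp, which encodes a cold-inducible RNA-binding protein, had 28.55, 69.38 and 3.37 RPKM. Gm7461 and Gm6410 lie on opposite strands in almost the same window of chromosome 8 and are 1 measurement, with 23.16, 47.81 and 2.05 RPKM for Gm7461. The others named by the same rule, 1700064H15Rik, 2900002K06Rik and Sfrs18, had relative differences between 1.53 and 1.78.

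Several of the lowest were predicted genes. Gm10721, a predicted gene near the start of the chromosome 9 sequence, had 4.85, 6.56 and 29.63 RPKM (9, 7 and 492 reads), and Gm10222, on chromosome 1, had 12.39, 25.31 and 49.21 RPKM, the highest value of the table at 100000 cells. Gm11168, also near the start of chromosome 9, had 31.24, 27.19 and 44.03 RPKM. Of the 11 windows above 20 RPKM at 100000 cells, 6 belong to these predicted genes and to Gm16869, a neighbour on chromosome 9 that was named after its values were seen. How reads that match several places were handled is not given in the sources used here. Whether the values of these predicted genes reflect the mark was not tested. Wnt4, a secreted signalling ligand gene, had 1.62, 12.19 and 5.66 RPKM (3, 13 and 94 reads), with relative differences of -2.51 and -1.24; its promoter holds 44 CG, and its H3K27me3 was 1.32 RPKM with RNA of 0.15 RPKM. The log2 ratio of RPKM of Wnt4 at 5000 cells, on the same scale as that of Actb, -1.80, has an interval of -4.11 to -0.22. Fam184b had 0, 13.13 and 1.87 RPKM (0, 14 and 31 reads), so that its low value at 5000 cells was not shared by 10000 cells. Prr5 and Pcsk5 each rest on 3 reads at 5000 cells, Gm10807 on 3 reads at 10000 cells and Dennd1b on 5 reads there. The window of Gm10807 starts at 57694261 on chromosome 10 (mm9), near that of the multicopy gene Dux at 57687954, so its value is uncertain too.

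CpG number, which the choice of windows did not use, went with level in each library. For 15820 of 19436 genes off chromosome 18 (81.4%) a RefSeq promoter was found, and CG was counted in 300 bases around the start. Genes with 0 to 2 CG had median levels of 0.54, 0 and 0.24 RPKM at 5000, 10000 and 100000 cells, those with 15 to 24 had 8.62, 18.75 and 3.61 RPKM, and those with 35 or more had 13.46, 29.06 and 6.02 RPKM. Spearman correlations of level with CG number across genes were 0.694, 0.711 and 0.752, and with RNA of 1000 cells 0.757, 0.768 and 0.752 over 19898 genes.

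**Figure D4:**
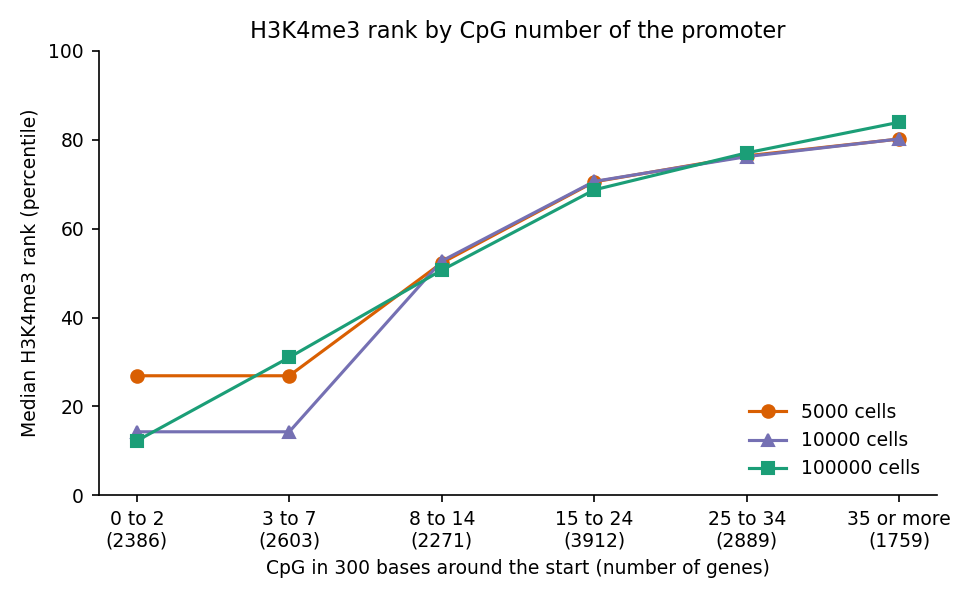
Median H3K4me3 rank (vertical axis, percentile) of genes by the number of CG in 300 bases around the start (horizontal axis, with the number of genes) at 5000, 10000 and 100000 cells. Ranks climb with CG number in each library from 8 to 14 CG upwards, and at 35 or more the 100000-cell library stands at 83.9 against 80.1 and 80.2 for 5000 and 10000 cells.

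Genes of like level at 100000 cells differed at 5000 and 10000 cells by their H3K27me3. Among genes of 4 to 6 RPKM of H3K4me3 at 100000 cells, those with H3K27me3 under 0.25 RPKM had medians of 13.46 RPKM at 5000 cells, 29.06 RPKM at 10000 cells and 5 RPKM at 100000 cells (1809 genes). Those with 0.25 to 1 RPKM of H3K27me3 had 10.23, 22.50 and 4.88 RPKM (828 genes), and those with 1 RPKM or more had 7.54, 15.94 and 4.70 RPKM (181 genes). The order was the same at 2 to 4 and at 6 to 10 RPKM, where the class with most H3K27me3 held 513 and 75 genes. Of genes with 2 RPKM or more of H3K27me3 and enough H3K4me3, 20.3% of 143 were lower by at least 1 log2 unit at 5000 cells and 24.5% at 10000 cells, against 4.74% and 4.93% of all genes, and 0% were higher. RNA ran the other way: at 4 to 6 RPKM, genes with RNA under 1 RPKM had 9.69 and 19.69 RPKM at 5000 and 10000 cells, and those with 20 RPKM or more had 15.08 and 32.81 RPKM. H3K27me3 and RNA are themselves related across genes, and their parts were not told apart.

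**Figure D5:**
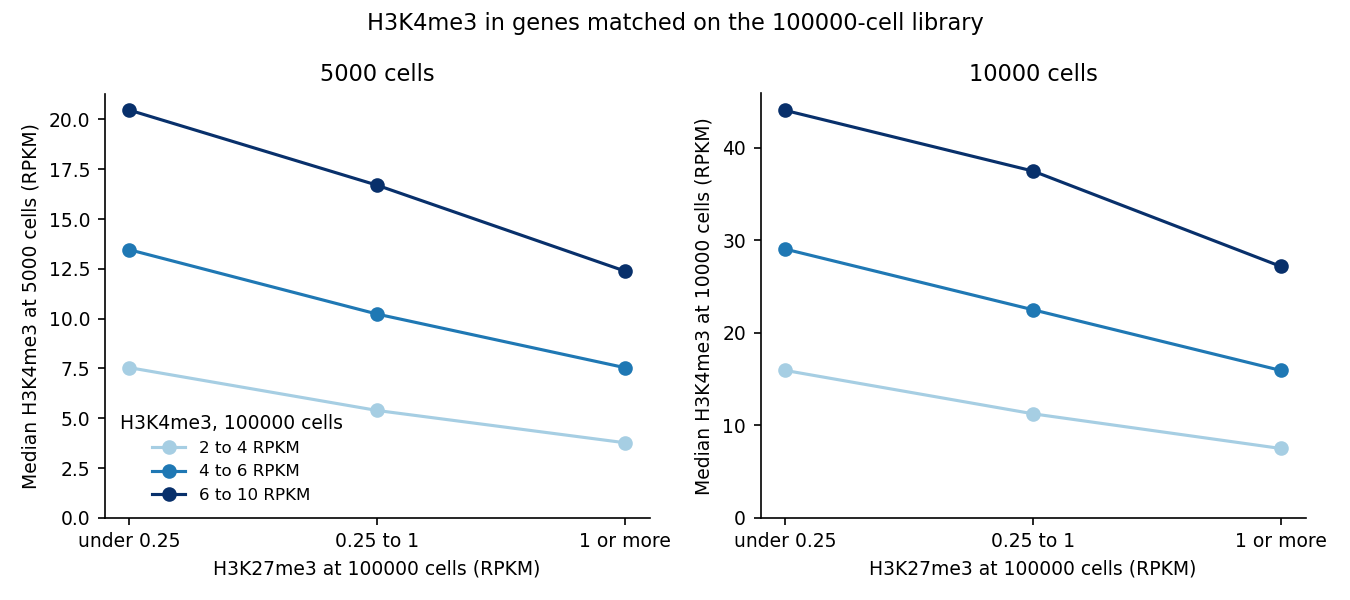
Median H3K4me3 (vertical axis, RPKM) at 5000 cells (left) and 10000 cells (right) of genes with 2 to 4, 4 to 6 or 6 to 10 RPKM of H3K4me3 at 100000 cells, by their H3K27me3 at 100000 cells (horizontal axis, RPKM). In each of the 3 level classes the median is lowest where H3K27me3 is 1 RPKM or more, for example 7.54 against 13.46 RPKM at 5000 cells in the class of 4 to 6 RPKM.

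Chromosomes differed in the same way in the 3 libraries. Mean window levels over the median of the autosomes were 1.37, 1.41 and 1.46 for chromosome 8, 1.36, 1.36 and 1.46 for chromosome 11, and 1.20, 1.22 and 1.29 for chromosome 1 at 5000, 10000 and 100000 cells. The X chromosome stood at 0.412, 0.426 and 0.408, and the other autosomes between 0.845 and 1.15 over the 3 libraries. The Y chromosome, with 33 windows, stood at 0.152, 0.0696 and 0.0953. The 13 windows of mitochondrial genes were at 0 in each library.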

How the data were processed

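H3K4me3 was measured by native ChIP-seq and sequenced in pairs on an Illumina platform, per the labels. The submitters' processing notes name BWA and mm9; for versions, counting and filters the sources used here give nothing. The authors deposited RPKM values per the file headers, in 1 kb windows for H3K4me3 and per transcript for H3K27me3 and RNA; a further 2 H3K4me3 columns come from another series and were left aside.

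From these files, reads per window were recovered from the RPKM steps (100% of values whole within 0.006 RPKM). Of 25727 symbols, 57 on several chromosomes, 94 cut at a hyphen and 6 on another chromosome than in RefSeq (some in more than 1 of these groups) were left out of gene ranks. A gene is its window with the highest mean. Promoter CG number is the highest over a gene's RefSeq promoters. No test was run, since each cell number has 1 library; Spearman correlations, recovery of the top 5%, list percentiles and differences of log2(RPKM + 1) are descriptions. Named genes are, from each list, up to 4 highest and the lowest by mean rank, the 8 highest of all, and the 6 largest rises and falls per comparison; not each is described. The members and lists were chosen with earlier results of these data known. The steps were tested on simulated reads. Software was matplotlib 3.10.9, scipy 1.17.1, pandas 2.3.3, numpy 2.4.6 and Python 3.11.15.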

Additional observations from a re-analysis of the deposited data

How the results depend on the processing

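Each cell number has 1 library, so no spread between replicates was available, and any change of a correlation or ratio is given. No paired analysis was possible because each cell number has 1 library. Values follow the order 5000 and 100000 cells, 10000 and 100000 cells, 5000 and 10000 cells. Window correlations were 0.904, 0.909 and 0.949 in windows above 0 in all 3 libraries, 0.881, 0.884 and 0.938 at a mean of at least 1 RPKM, 0.726, 0.757 and 0.869 with reads thinned to the shallowest library, 0.856, 0.879 and 0.877 without chromosomes 1, 8, 11, X and Y, and 0.721, 0.753 and 0.731 in non-overlapping windows. Gene correlations were 0.888, 0.904 and 0.902 with the mean over the windows of a gene, 0.769, 0.801 and 0.898 after thinning, and 0.890, 0.909 and 0.907 without those chromosomes. Recovery of the top list was 36.9%, 33.6% and 60.2% for the top 1%, 69.9%, 70.1% and 82.8% for the top 10%, 42.5%, 43.9% and 72.9% after thinning, 48.8%, 51.6% and 70.4% in windows above 0 in all 3 libraries, and 66.6%, 66.5% and 80.5% in non-overlapping windows. The pair of 5000 and 10000 cells was the most alike in all 5 alternatives of recovery, in windows above 0 in all 3 libraries, at a mean of at least 1 RPKM and after thinning; in the other alternatives 10000 and 100000 cells were.

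Genes higher by at least 1 log2 unit at 5000 cells numbered 3429 with 5 RPKM added and 264 when centred on the median, and those lower 18 with 0.1 RPKM added, 2 with 5 RPKM added, 501 when centred and 304 with no filter on low values. At 10000 cells 272 were higher when centred, and those lower numbered 1 with 5 RPKM added, 521 when centred and 419 with no filter. Thinning moved the share of windows of 1 to 5 RPKM that held a read at 5000 cells to 90.3%. With 1 window per gene chromosome 8 stood at 1.46, 1.44 and 1.51 and chromosome 11 at 1.35, 1.31 and 1.43 times the autosome median at 5000, 10000 and 100000 cells. List percentiles moved by a median of 4.16 points after thinning and 1.36 with the mean over windows, at most by 26.9 and 10.6. The cause was not tested. Non-overlapping windows, 1 window per gene, thinning of detection, and leaving out chromosomes for gene counts and H3K27me3 classes were added after the data were seen; the last left the H3K27me3 class medians as given.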
